A study of Homo sapiens with 12 samples.

Results

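The transcripts of 6 enzymes that supply NADPH or run the pentose phosphate pathway were followed in human cells without mitochondrial DNA (mtDNA), called ρ° cells, and in their ρ+ parents. The enzymes were PGD, TALDO1, TKT, IDH1, IDH2 and NNT, and every probe set of the array whose platform gene symbol is one of them was taken, which gave 9 of 22283 probe sets. A probe set combines several short oligonucleotides near the 3′ end of a transcript, and TKT, IDH2 and NNT had 2 each. The study asked which nuclear transcripts change in the absence of mtDNA, and read 12 Affymetrix arrays, 3 for each of 4 groups. The groups were A549 ρ° cells and A549 ρ+ cells, from an epithelial lung adenocarcinoma line, and 143BTK- ρ° cells and 143BTK- ρ+ cells, from an osteosarcoma line that lacks thymidine kinase. The ρ° cells had been grown for 3 weeks with 50 ng/ml ethidium bromide, which stops the copying of mtDNA, and were pooled without selecting a clone. The ρ+ cells received no ethidium bromide, and the base medium of all 4 groups was high in glucose and was supplemented with uridine at 50 µg/ml, 10% serum and pyruvate at 1 mM. The comparison of ρ° with ρ+ cells therefore carries a past treatment with ethidium bromide together with the loss of mtDNA, and the 2 cannot be told apart. The 3 arrays of a group came from separate RNA extractions, which the study calls biological replicates, and no source used here says whether the cultures were separate, so the p-values measure the spread between these extractions.

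NADPH is the reducing agent that cells use to build fatty acids, sterols and proline and to keep glutathione and thioredoxin reduced. In the cytosol it comes from the oxidative branch of the pentose phosphate pathway, where PGD (6-phosphogluconate dehydrogenase) makes NADPH and ribulose 5-phosphate, and from IDH1 and ME1. TKT (transketolase) and TALDO1 (transaldolase) form the reversible non-oxidative branch, which links ribose phosphate to glycolysis and makes no NADPH. IDH1, in the cytosol and in peroxisomes, and IDH2, in mitochondria, turn isocitrate into 2-oxoglutarate with NADP+, and NNT (nicotinamide nucleotide transhydrogenase), in the inner mitochondrial membrane, passes a hydride from NADH to NADP+ and is driven by the proton gradient that respiration normally keeps up.

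The 6 genes lie on chromosomes 1 (PGD), 11 (TALDO1), 3 (TKT), 2 (IDH1), 15 (IDH2) and 5 (NNT). All 6 matched the RefSeq promoter table of the assembly GRCh38.p14, which gives 250 bases before and 50 bases after a transcription start. Because several of these genes are known targets of the transcription factor NRF2, the windows were searched on both strands for the core of its binding element (ARE core, letters TGACNNNGC), and also for an E-box (CACGTG) and for TGATGCAA, the element bound by ATF4 with a C/EBP protein. None of these searched letters overlap each other in the windows shown. The ARE core was found in 1 window of IDH1 and in that of PGD, and the E-box in 1 window of NNT, at a start inside the gene's outer limits. The windows of TALDO1, TKT and IDH2 and a second window each of IDH1 and NNT held none of them, and TGATGCAA was in no window. The IDH2 window is at a start inside the gene, and its outer start was not searched. Of all 35116 RefSeq promoter windows of this length, 13.3% held the ARE core, 7.26% the E-box and 0.866% TGATGCAA, and a match describes letters only. The 3 windows with a match are shown 5′ to 3′ on the strand of the gene, with the matched letters in capitals; the match in PGD is on the reverse strand. They are chr2:208255022-208255321 (minus strand) for IDH1, chr1:10398814-10399113 (plus strand) for PGD and chr5:43602930-43603229 (plus strand) for NNT.
IDH1: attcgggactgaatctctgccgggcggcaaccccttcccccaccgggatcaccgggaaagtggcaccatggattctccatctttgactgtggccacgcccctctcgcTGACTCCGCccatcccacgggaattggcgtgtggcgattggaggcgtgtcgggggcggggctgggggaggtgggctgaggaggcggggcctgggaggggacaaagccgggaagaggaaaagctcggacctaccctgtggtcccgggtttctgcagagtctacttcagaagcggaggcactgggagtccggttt
PGD: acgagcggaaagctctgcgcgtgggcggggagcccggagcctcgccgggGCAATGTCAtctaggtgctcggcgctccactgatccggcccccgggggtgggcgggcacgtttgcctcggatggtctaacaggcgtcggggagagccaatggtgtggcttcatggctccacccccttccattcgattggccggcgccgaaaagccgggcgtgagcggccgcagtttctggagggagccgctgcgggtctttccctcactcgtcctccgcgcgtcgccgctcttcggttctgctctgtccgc
NNT: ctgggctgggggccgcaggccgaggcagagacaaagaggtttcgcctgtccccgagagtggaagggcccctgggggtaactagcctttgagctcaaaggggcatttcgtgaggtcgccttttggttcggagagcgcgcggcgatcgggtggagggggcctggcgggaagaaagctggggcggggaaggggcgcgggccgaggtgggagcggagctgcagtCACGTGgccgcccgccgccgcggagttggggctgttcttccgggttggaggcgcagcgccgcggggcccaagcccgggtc

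The values are normalised signals on a linear scale, brought to the same distribution over the 6 arrays of a line, so a signal can be compared between arrays of a line but not between the lines or between probe sets. In each line the 13370 probe sets (60%) with the highest mean log2 signal were tested with limma (two-sided, Benjamini-Hochberg adjusted over all of them), and a probe set was called at an adjusted p under 0.05. The filter kept 8 of the 9 probe sets in A549 and 9 of 9 in 143BTK-, and 8 were tested in both lines. Across all tested probe sets the median log2 change was -0.00 in both lines. Arrays of one group correlated at 0.900 to 0.966 in log2 signal over the tested probe sets of their line. The A549 ρ+ C array had a 3′ to 5′ signal ratio of 8.81 for ACTB, against 1.43 to 2.83 on the other A549 arrays, and the 143BTK- ρ+ C and ρ° B arrays correlated least with the other arrays of their groups. Epithelial markers moved with the loss of mtDNA in A549: their summed signal was 3691 to 6963 in ρ° cells and 10750 to 13155 in ρ+ cells. Of 5 listed genes 4 were tested and 4 were called lower, where 10.6% of all tested probe sets were called. KRT19, among them, averaged 3.53 in A549 ρ° cells and 408.7 in A549 ρ+ cells, where the lowest mean signal tested was 17.9. It passed the filter through its ρ+ arrays, and nothing is drawn from its call. In 143BTK- the sums of the epithelial genes were 2955 to 5006 in ρ° cells and 4181 to 5134 in ρ+ cells. There 0 of 3 tested genes were called, as were 0% of all tested probe sets. No gene of the mesenchymal, osteoblast, lung alveolar or leukocyte marker lists was called in either line. EPCAM averaged 4.77 in A549 ρ° cells and 8.60 in A549 ρ+ cells, below the lowest mean signal tested there (17.9), so this epithelial marker was at the lower limit of the arrays in an epithelial line. Of the markers of the tissues of origin, 3 of 5 lung alveolar genes passed the filter in A549 (summed signal 132.8 to 215.6 in ρ° cells and 119.3 to 182.2 in ρ+ cells) and 1 of 4 osteoblast genes in 143BTK- (85.3 to 155 in ρ° cells and 99.0 to 112 in ρ+ cells). As 4 of 5 lung alveolar genes passed in 143BTK- and 1 of 4 osteoblast genes in A549, these markers did not tell the lines apart. The part of these differences in the results below was not tested.

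In A549 the NADP-linked isocitrate dehydrogenases moved in opposite directions: IDH2 rose on 1 of its 2 probe sets and IDH1 fell in ρ° cells. These were the calls among 8 tested member probe sets, 1 higher and 1 lower, while 10.6% of all tested probe sets were called in this line. PGD, both TKT probe sets and NNT had higher mean signals in A549 ρ° cells and TALDO1 a lower one, and none of them was called. The arrays read RNA of whole cultures, in which fewer cells of a kind and less RNA in each cell cannot be told apart. In 143BTK- 0 of 9 member probe sets were called, as were 0% of all tested probe sets; at an unadjusted p under 0.05 there were 517 higher and 625 lower probe sets in that line, and 2 of the 9 members, both of NNT. The median log2 change of the members was 0.55 in A549 and 0.12 in 143BTK-.

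**Figure D1:**
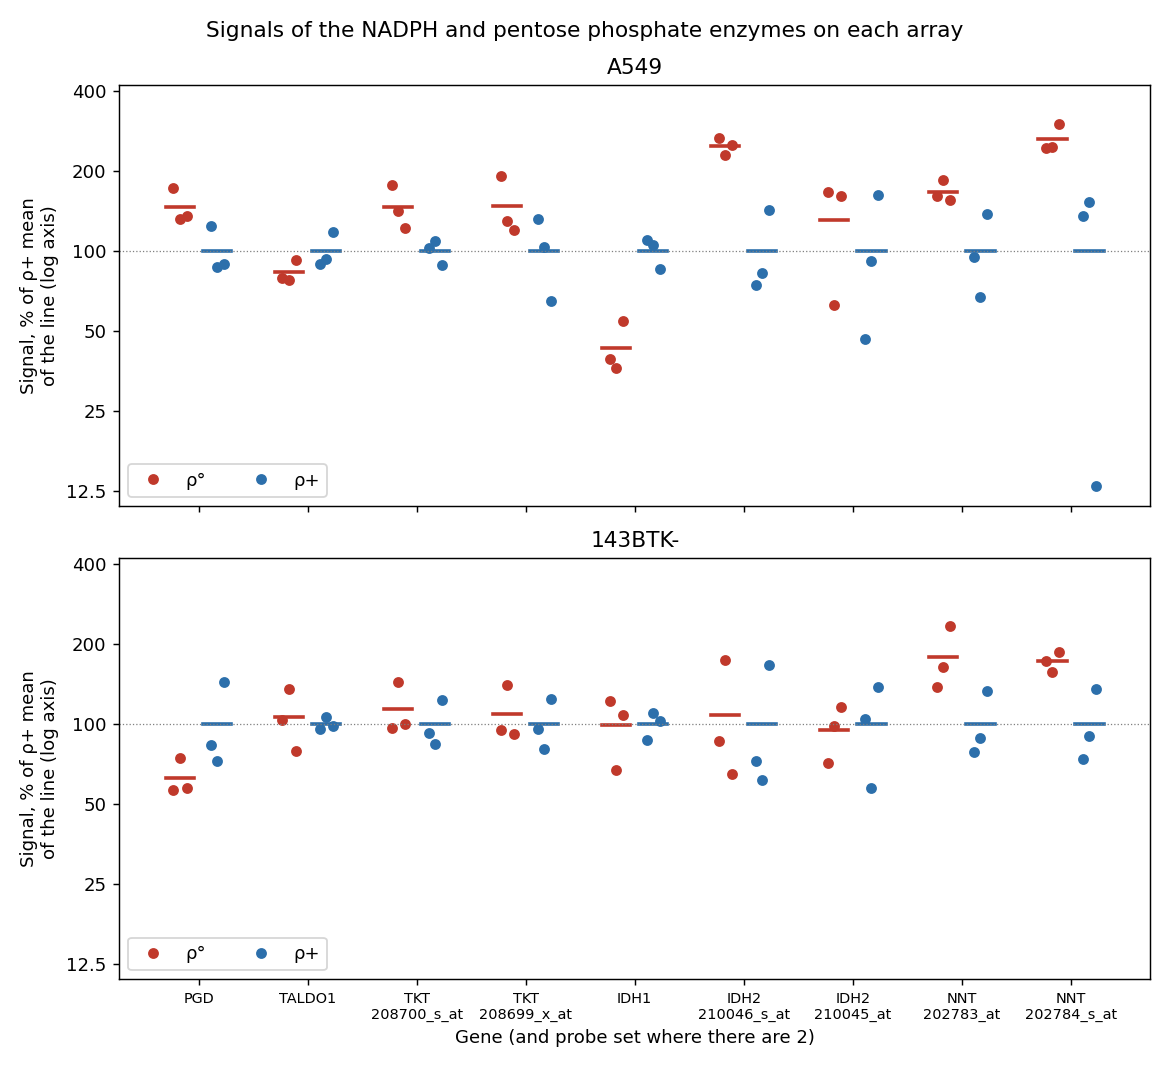
Normalised signal on each array as a percentage of the mean ρ+ signal of the same line and probe set (log axis); points are arrays, bars are group means, red ρ° and blue ρ+, with A549 above and 143BTK- below. In A549 the ρ° arrays of IDH1 lie below all ρ+ arrays and those of IDH2 210046_s_at above them, and both NNT probe sets have all ρ° arrays above all ρ+ arrays in both lines.

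IDH1 had signals of 333.0, 309.9 and 462.3 in A549 ρ° cells (arrays A, B and C), against 932.3, 897.7 and 725.2 in A549 ρ+ cells. The highest ρ° array was well below the lowest ρ+ array. The means were 368 ± 82.1 and 852 ± 111 (SD, n = 3 each), a log2 change of -1.22 (SE 0.20, 95% interval -1.67 to -0.78) or 2.33-fold lower in ρ° cells (limma, adjusted p = 0.00553). It was called under all 15 alternative settings tried in A549, with log2 changes of -1.40 to -1.09. In 143BTK- the signals of IDH1 were 293.5, 161.2 and 258.4 in ρ° cells and 209.3, 263.7 and 246.7 in ρ+ cells. The 2 groups overlapped and their means were nearly the same, with a log2 change of -0.05 (SE 0.28, 95% interval -0.68 to 0.57). The A549 change minus the 143BTK- change of IDH1 was -1.17 and was not called (limma, adjusted p = 0.0940).

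IDH2 was read by 2 probe sets. The brighter one, 210046_s_at, had signals of 352.4, 303.2 and 331.3 in A549 ρ° cells and 98.8, 109.6 and 188.9 in A549 ρ+ cells. All ρ° arrays were above all ρ+ arrays, and the ρ+ C array, the one with the high ACTB ratio, was the highest of its group. The means were 329 ± 24.7 and 132 ± 49.2 (SD, n = 3 each), a log2 change of 1.37 (SE 0.26, 95% interval 0.80 to 1.94) or 2.59-fold higher in ρ° cells (limma, adjusted p = 0.0103). Without the ρ+ C array the log2 change was 1.66 (adjusted p = 0.000825), but the call was lost without the ρ° A array (1.32, adjusted p = 0.0594) or without the ρ+ B array (1.27, adjusted p = 0.0515). The other probe set, 210045_at, was dim and did not separate the groups, with 52.4, 19.7 and 50.5 in A549 ρ° cells and 14.6, 28.8 and 50.8 in A549 ρ+ cells (log2 change 0.43, SE 0.53, adjusted p = 0.647).

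In 143BTK- neither IDH2 probe set moved beyond the spread of its arrays. The signals of 210046_s_at were 198.5, 399.2 and 149.3 in ρ° cells and 166.1, 141.2 and 381.5 in ρ+ cells. Each group held 1 array far above its others, ρ° B and ρ+ C, the arrays that stood apart in this line, and the log2 change of 0.13 had an interval of -0.89 to 1.16. The signals of 210045_at were 33.0, 45.5 and 53.5 in ρ° cells and 48.5, 26.7 and 63.7 in ρ+ cells, with a log2 change of -0.01 (SE 0.38).

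In both lines every ρ° array showed more NNT signal than any ρ+ array, at signals near the lower limit of the array in A549. Probe set 202783_at had 27.0, 31.0 and 26.1 in A549 ρ° cells and 16, 11.3 and 23.2 in A549 ρ+ cells, where the lowest mean signal tested was 17.9. In 143BTK- it had 78.6, 94.0 and 133.3 in ρ° cells and 44.8, 50.6 and 76.0 in ρ+ cells. The groups did not overlap in either line, with little space between the ρ° A array and the ρ+ C array in 143BTK-. In 143BTK- the log2 change was 0.84 (SE 0.32, 95% interval 0.13 to 1.55, or 1.79-fold), not called (limma, adjusted p = 0.554). In A549 the fit gave 0.79 (SE 0.42, 95% interval -0.14 to 1.73, adjusted p = 0.258), but the ρ+ mean of 16.8 was under the lowest mean tested, so the probe set passed through its ρ° arrays (mean 28.0) and the size there is not well measured. With 16 added before log2 the values were 0.69 in 143BTK- and 0.44 in A549, and with 64 added 0.45 in 143BTK- and 0.19 in A549.

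The second NNT probe set, 202784_s_at, repeated the order of the arrays. It had 130.7, 118.3 and 141.4 in 143BTK- ρ° cells and 56.1, 68.0 and 102.9 in 143BTK- ρ+ cells, a log2 change of 0.83 (SE 0.29, limma adjusted p = 0.536). In A549 it had 29.8, 30.0 and 36.8 in ρ° cells and 16.5, 18.6 and 1.6 in ρ+ cells, and was below the filter, so no size is given there. Both probe sets read the same RNA, so the second is not a further replicate. Non-overlapping ρ° and ρ+ arrays were common, at 31.6% of tested probe sets in A549 and 15.0% in 143BTK-, and 2.70% of those tested in both lines (323 of 11967) did so in the same direction in both, as NNT did. For 202783_at the exact two-sided permutation p over the 400 exchanges of arrays within the lines (0.005, the smallest it can give) follows from that order and adds nothing to it. In the limma fit of all 12 arrays the mean log2 change of 202783_at was 0.82 (SE 0.24, 95% interval 0.31 to 1.33, adjusted p = 0.0729), not called, where 3.70% of probe sets were. This mean was 0.56 with 16 added and 0.32 with 64 added (adjusted p = 0.0670 and 0.0688). The mean change was called without the A549 ρ+ C array (0.95, adjusted p = 0.0418), without the 143BTK- ρ+ C array (0.93, adjusted p = 0.0493) or without both (1.06, adjusted p = 0.0237). The A549 part of this mean comes from a probe set that passed the filter through its ρ° arrays. These means and calls therefore carry a change that is not well measured, and no shared rise is drawn from them.

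PGD, the NADPH-making enzyme of the oxidative branch, had changes of opposite sign in the 2 lines, and neither was called. Its signals were 4273.1, 3243.8 and 3348.4 in A549 ρ° cells and 3061.3, 2152.7 and 2207.8 in A549 ρ+ cells. The ρ° arrays were all above the ρ+ arrays, by a small margin between the lowest ρ° and the highest ρ+ array, and the log2 change was 0.56 (SE 0.17, 95% interval 0.17 to 0.94, or 1.47-fold, limma adjusted p = 0.0682). In 143BTK- the signals were 272.2, 359.0 and 278.9 in ρ° cells and 401.9, 349.9 and 697.2 in ρ+ cells, with the ρ+ C array far above the others. These groups overlapped in 1 pair of arrays, and the log2 change was -0.62 (SE 0.29, 95% interval -1.27 to 0.04, adjusted p = 0.612). Chromosome 1, which carries PGD, had a median log2 change of -0.03 in A549 and -0.17 in 143BTK-.

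TKT, which moves 2-carbon units between sugar phosphates, showed higher signals in A549 ρ° cells on both probe sets. Probe set 208700_s_at had 4750.9, 3771.2 and 3255.6 in A549 ρ° cells and 2738.8, 2915.8 and 2378.4 in A549 ρ+ cells, without overlap (log2 change 0.54, SE 0.16, 95% interval 0.18 to 0.90, limma adjusted p = 0.0606). Probe set 208699_x_at had 4824.3, 3280.2 and 3044.0 in A549 ρ° cells and 3348.4, 2614.0 and 1634.5 in A549 ρ+ cells, with overlap (0.58, SE 0.26, adjusted p = 0.175). Without the ρ+ C array, the lowest of its group, the log2 change of 208699_x_at was 0.30, and with each A549 array left out in turn it was 0.30 to 0.82. The suffix _x_at marks a probe set whose probes may also bind other transcripts, and the 2 probe sets followed each other over the 12 arrays, with Pearson's r of 0.89 after centring on each line. In 143BTK- the groups overlapped on both. The signals of 208700_s_at there were 863.0, 1282.8 and 889.3 in ρ° cells and 827.4, 750.7 and 1093.4 in ρ+ cells (0.18, SE 0.23), and the log2 change of 208699_x_at was 0.12.

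TALDO1, which moves 3-carbon units in the same branch, had a lower mean signal in A549 ρ° cells, the direction of IDH1 and opposite to that of TKT. It had 1595.1, 1561.4 and 1850.5 in A549 ρ° cells and 1795.7, 1869.8 and 2364.5 in A549 ρ+ cells. The groups overlapped, and the log2 change was -0.26 (SE 0.16, 95% interval -0.61 to 0.08, limma adjusted p = 0.316). In 143BTK- it had 1002.8, 1310.8 and 767.6 in ρ° cells and 925.4, 1024.1 and 951.3 in ρ+ cells, where the ρ° arrays spread on either side of the ρ+ arrays (0.05, SE 0.22). The enzymes of the non-oxidative branch thus had log2 changes of either sign in A549, none of them called.

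**Figure D2:**
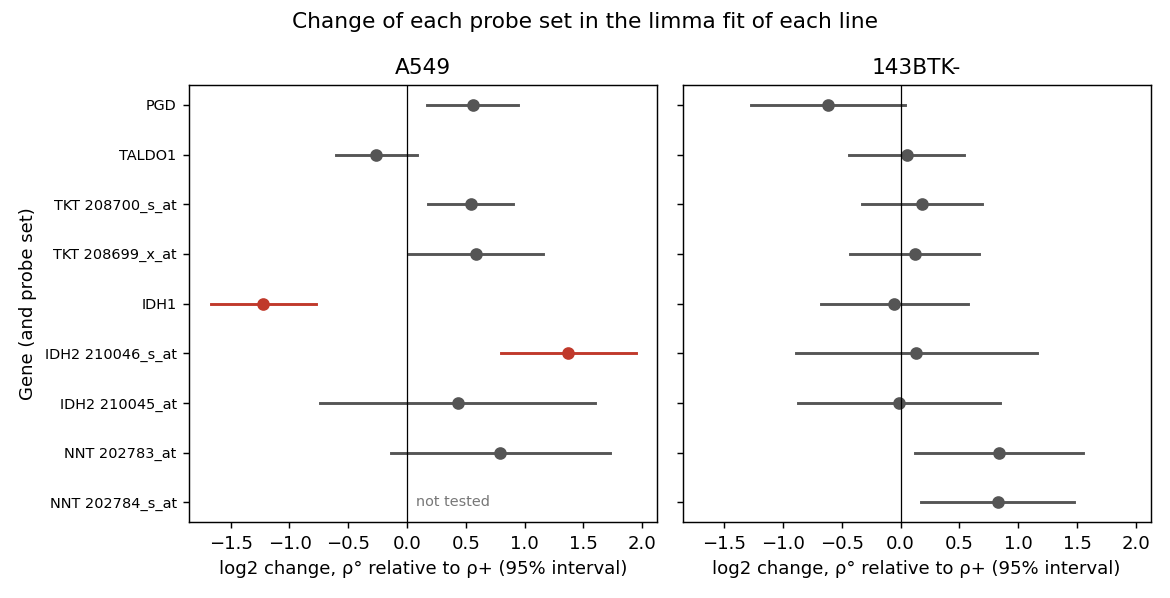
Log2 change of each member probe set, ρ° relative to ρ+, with its 95% interval from the limma fit of each line (A549 left, 143BTK- right); red marks an adjusted p under 0.05. IDH1 (-1.22) and IDH2 210046_s_at (1.37) are called in A549 and none in 143BTK-, where the intervals of both NNT probe sets lie above 0.

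Whether a change differed between the lines was tested in the fit of all 12 arrays as the A549 change minus the 143BTK- change, which was called for 1.86% of probe sets and for 0 of 8 members. PGD had a difference of 1.17 (SE 0.34, 95% interval 0.44 to 1.91, limma adjusted p = 0.0924) and IDH1 one of -1.17 (SE 0.35, -1.91 to -0.43, adjusted p = 0.0940). Both intervals leave out 0 before adjustment, and neither difference was called after it. The difference of IDH1 was called without the 143BTK- ρ° B array (-1.43, adjusted p = 0.0355). For IDH2 210046_s_at the difference was 1.24 with an interval of 0.03 to 2.44 (adjusted p = 0.272), so a change of IDH2 in one line only was not shown. NNT 202783_at had a difference of -0.04 with an interval of -1.06 to 0.97, wide enough to hold a change of either sign.

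The mean change over both lines was called for 0 of 8 members. IDH1 had a mean log2 change of -0.64 (95% interval -1.01 to -0.27, limma adjusted p = 0.0569), with nearly all of it in A549. IDH2 210046_s_at had 0.75 (0.15 to 1.36, adjusted p = 0.147), TKT 208700_s_at 0.36 (0.06 to 0.66, adjusted p = 0.164) and TALDO1 -0.10 (adjusted p = 0.713). For PGD the opposite signs left -0.03 (-0.40 to 0.34). After centring on each line, the log2 signals of IDH1 and IDH2 210046_s_at ran against each other over the 12 arrays (Pearson's r = -0.80), those of TKT 208700_s_at and IDH2 210046_s_at together (0.79), and those of PGD and TALDO1 were weakly related (-0.24). These values describe 12 arrays that share their groups, and no test was made of them.

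The other genes of these pathways were read from lists written with earlier results of these data known. Each gene was counted by 1 probe set, the one with the highest mean signal, whereas the shares over all tested probe sets include dim ones. Among probe sets with a mean signal of at least 100, tested on their own, 1183 of 5816 were called in A549. In A549, where 10.6% of all probe sets were called (739 higher and 678 lower), 0 of 3 tested genes of the oxidative branch, out of 4 listed, and 0 of 5 of the non-oxidative branch were called in either direction. PGLS, which opens 6-phosphogluconolactone ahead of PGD, had log2 changes of 0.09 and 0.30 on its 2 probe sets in A549 and of 0.29 and 0.97 in 143BTK-. Its second probe set, 218388_at, had 291.3, 301.6 and 252.5 in 143BTK- ρ° cells and 133.3, 145.3 and 151.3 in 143BTK- ρ+ cells, without overlap, and its mean change was called (log2 0.63, limma adjusted p = 0.0365). H6PD, the enzyme of the endoplasmic reticulum that carries out the first oxidative steps, had 0.60 in A549 (adjusted p = 0.216), RPIA, which interconverts pentose phosphates, 0.03, and RPE, which epimerises them, 0.20. Downstream, 1 of 6 tested genes of ribose phosphate use was called in A549: PRPSAP1, a protein associated with phosphoribosyl pyrophosphate synthetase, rose 2.10-fold (log2 change 1.07, adjusted p = 0.0489). PRPSAP1 had 322.8, 319.6 and 248.4 in A549 ρ° cells and 114.7, 103.7 and 233.4 in A549 ρ+ cells, and the ρ+ C array nearly reached the ρ° arrays.

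Among the 5 tested genes of NADP-linked isocitrate, malate and transhydrogenase enzymes in A549, 1 was called higher (IDH2) and 1 lower (IDH1). Both are members described above, and 10.6% of all tested probe sets were called in A549. ME1, the cytosolic malic enzyme that makes NADPH from malate, was not called on its brighter probe set, 204059_s_at (0.43, adjusted p = 0.168). On 204058_at it was called, with 311.5, 397.0 and 299.8 in A549 ρ° cells and 171.6, 151.0 and 181.0 in A549 ρ+ cells (1.99-fold higher, limma adjusted p = 0.0130). In 143BTK- the same probe set had overlapping groups and a log2 change of -0.00. Of the folate enzymes 0 of 4 were called in A549, although 1 of 3 probe sets of SHMT2, the mitochondrial serine hydroxymethyltransferase, was higher there (214437_s_at, 1.04, adjusted p = 0.0382) and in the mean change (0.86, adjusted p = 0.0178). NADK, the kinase that makes NADP+ from NAD+, was not called on any of its 6 probe sets.

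Of the 7 tested NAD-linked relatives of these enzymes, 1 was called higher in A549 and 3 lower, against 10.6% of all tested probe sets. IDH3A, the catalytic subunit of the mitochondrial isocitrate dehydrogenase that uses NAD+, fell on both probe sets, 2.50-fold on 202069_s_at (limma, adjusted p = 0.0182) and 1.92-fold on 202070_s_at (adjusted p = 0.0400). Its signals on 202069_s_at were 89.8, 51.9 and 111.2 in A549 ρ° cells and 191.7, 220.8 and 192.3 in A549 ρ+ cells. IDH3B, another subunit, was called lower on 2 of 3 probe sets (-0.65 and -0.61). Its other probe set, 201509_at, had -0.70 without overlap of the groups and was not called (limma, adjusted p = 0.0604). IDH3G, the remaining subunit, had 0.71 and 0.39 and was not called. In A549 ρ° cells the transcripts of IDH3A and IDH3B were thus lower than in ρ+ cells. Those of the NADP-linked mitochondrial enzyme IDH2 were called higher on 210046_s_at only, a call lost without the ρ° A or the ρ+ B array. MDH2, the mitochondrial malate dehydrogenase, fell 1.84-fold on 209036_s_at (adjusted p = 0.0179), and its other probe set had -0.72 (adjusted p = 0.111). Chromosome 7, which carries MDH2, had a median log2 change of -0.27 in A549. ME2, the mitochondrial malic enzyme, rose on its 3 probe sets, by 1.53-fold, 1.81-fold and 2.50-fold (adjusted p = 0.0431, 0.0233 and 0.00521), and on 210154_at in the 12-array fit as well (mean log2 change 0.75, adjusted p = 0.0251). In 143BTK- 0 of 7 of these genes were called, as were 0% of all tested probe sets. IDH3A 202069_s_at had a log2 change of 0.07 there.

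**Figure D3:**
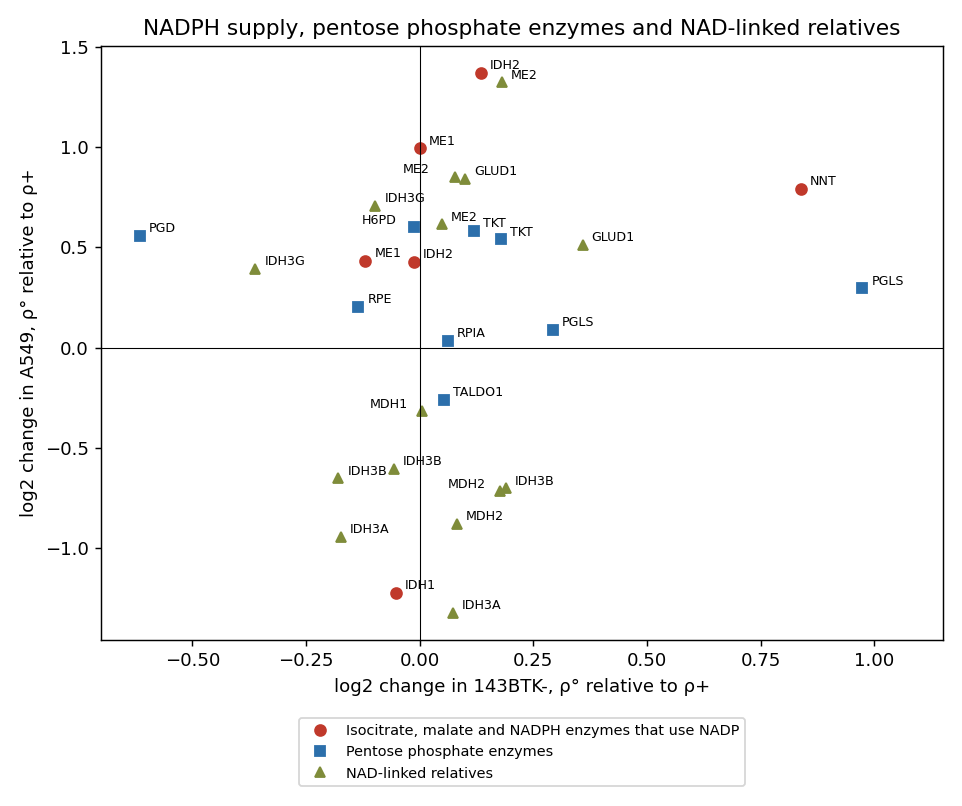
Log2 change in A549 (vertical) against 143BTK- (horizontal), ρ° relative to ρ+, for every probe set of the named enzymes tested in both lines; circles are NADP-linked enzymes, squares pentose phosphate enzymes and triangles NAD-linked relatives. Changes spread from -1.32 (IDH3A) to 1.37 (IDH2) in A549 and are mostly small in 143BTK-, where NNT (0.84) and 1 PGLS probe set (0.97) are the highest.

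Among 11 tested users of NADPH, out of 16 listed, 0 were called higher in A549 and 3 lower, against 10.6% of all tested probe sets in either direction. POR, which passes electrons of NADPH to cytochromes P450, fell 2.52-fold, with 147.3, 121.2 and 155.9 in A549 ρ° cells and 381.1, 318.7 and 368.8 in A549 ρ+ cells (limma, adjusted p = 0.00337). SQLE and DHCR7, enzymes of cholesterol synthesis, fell 2.24-fold on 209218_at (adjusted p = 0.00608) and 2.02-fold on 201791_s_at (adjusted p = 0.0120), and both were called lower in the mean change (-0.76 and -0.65). The other probe sets of these genes, 2 of SQLE and 1 of DHCR7, had log2 changes of -0.43, -0.54 and -0.74 and were not called. In A549 the median log2 change was -0.27 on chromosome 7 (POR), -0.26 on chromosome 8 (SQLE) and 0.19 on chromosome 11 (DHCR7). The part of these medians in the falls was not tested. PYCR1, which makes proline with NAD(P)H, was the user called higher in the mean change (0.78, adjusted p = 0.0360). Its signals were 375.9, 448.8 and 282.0 in 143BTK- ρ° cells and 156.4, 207.1 and 201.3 in 143BTK- ρ+ cells, without overlap (adjusted p = 0.389 in that line). In A549 they were 335.0, 328.5 and 198.8 in ρ° cells and 226.9, 163.9 and 166.4 in ρ+ cells, with overlap (adjusted p = 0.155). GSR, which reduces glutathione, and TXNRD1, which reduces thioredoxin, had 0.13 and 0.38 in A549 and were not called.

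PGD, TALDO1, TKT and IDH1 are known targets of NRF2, a transcription factor of the response to oxidants. Of 10 tested NRF2 target genes outside NADPH supply, 2 were called higher in A549 and 3 lower, against 10.6% of all tested probe sets in either direction. SLC7A11, the cystine and glutamate exchanger, rose 1.79-fold on 209921_at (limma, adjusted p = 0.0240) and ABCC2, an efflux pump, rose 2.67-fold (adjusted p = 0.00481). HMOX1, heme oxygenase 1, fell 2.88-fold (adjusted p = 0.0177), and 2 aldo-keto reductases that use NADPH fell less, AKR1C3 with a log2 change of -0.59 (adjusted p = 0.0101) and AKR1B10 with one of -0.45 (adjusted p = 0.0376). GCLC and GCLM, the subunits of the enzyme that starts glutathione synthesis, were not called, nor was the brightest probe set of NQO1, a quinone reductase, while 1 of its other probe sets was lower (201468_s_at, -0.77, adjusted p = 0.0475). In A549 the median log2 change was -0.27 on chromosome 7 (AKR1B10) and -0.32 on chromosome 16 (NQO1). It was 0.05 on chromosome 10 (AKR1C3) and -0.04 on chromosome 22 (HMOX1), and the part of these medians in the changes was not tested. In 143BTK- 0 of 8 tested genes of this list were called, as were 0% of all tested probe sets, and 4 were higher and 4 lower. GCLM had a log2 change of -1.11 there (limma, adjusted p = 0.357) without overlap of its groups, which 15.0% of tested probe sets showed.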

How the data were processed

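RNA of A549 and 143BTK- ρ° and ρ+ cells was hybridised to 12 Affymetrix arrays, 3 for each group. The deposited intensity values are linear signals per probe set: the authors computed them with Microarray Suite 5.0 (MAS5 in the submitters' processing notes), from 12 µg of total RNA per array, and quantile-normalised each line's 6 arrays separately. All 12 columns of values were used and 0 were left out. Arrays give no read depth, and their number limits the precision.

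Log2 signals, with nothing added, went into limma (version 3.58.1, R 4.3.3, lmFit, eBayes with an intensity trend, two-sided, Benjamini-Hochberg over all tested probe sets, threshold 0.05). The study used a power law global error model fitted on other data and removed probe sets called Absent. In their place stand limma and the 60% of probe sets with the highest mean log2 signal in a line (lowest mean signals 17.9 in A549 and 15.0 in 143BTK-). The fits had 4 residual degrees of freedom in a line and 8 in the fit of 12 arrays, which tested 11967 probe sets. Exact permutations exchanged arrays within a line, with a smallest p of 0.1 in 1 line and 0.005 over both. The scripts were tested on simulated data.

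Gene names are those of the platform annotation, which gives a single gene for 19071, several for 1043 and none for 2169; of the 19071, 19059 matched RefSeq (GRCh38.p14) by Entrez ID. Of the probe sets with a single listed gene, 0 were annotated to a gene of mtDNA, and the loss of mtDNA was not checked on these arrays. Named were all member probe sets, PGLS, ME1, IDH3A, every list gene called in a comparison, and for each member the 3 probe sets of other genes with the most similar signals. RPIA, RPE, H6PD, IDH3G, NADK, GSR, TXNRD1, GCLC and GCLM were named after their values were seen. The members and lists were chosen with earlier results of these data known. Alternatives were another normalisation, an offset of 16 or 64, testing every probe set or those with mean signals from 100 up, eBayes without the trend, a block for the replicate letter, changes centred on the chromosome's median, each array left out, and both parental C arrays left out. Leaving out the 143BTK- ρ+ C and ρ° B arrays was added after seeing the data. Python 3.11.15 with matplotlib 3.10.9 drew the figures.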

Additional observations from a re-analysis of the deposited data

How the results depend on the processing

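Of 608 values of single member changes recomputed under the alternatives, 552 kept their direction and their side of the threshold, 20 gained a call, 2 lost one (IDH2 210046_s_at in A549 without the ρ° A or the ρ+ B array) and 34 changed sign. In A549, 2 member probe sets were called as reported, where 1417 of all 13370 tested probe sets were. After quantile normalization of all 12 arrays 3 were called, with 1424 of all 13370, and 3 with 64 added, with 1638. In both TKT 208700_s_at was added (limma, adjusted p = 0.0462 and 0.0495). With a mean signal of at least 100, 4 were called (PGD and TKT 208700_s_at added), with 1183 of all 5816 tested. With each array left out 1 to 3 were called, with 422 to 1916 of all 13370. There TKT 208700_s_at was added without the ρ° C array and PGD without the ρ+ A array. For the mean change, 1 was called with 16 added, with 64 added and with a mean signal of at least 100 (IDH1 each time, adjusted p = 0.0476, 0.0367 and 0.0409). Of all tested probe sets, 504 and 536 of 11967 and 345 of 4748 were called in these settings. Without both parental C arrays 2 were called (IDH2 210046_s_at, 1.12, and NNT 202783_at), with 619 of all 11967. With each array left out 0 to 2 were called, with 111 to 544 of all 11967. In those, IDH1 was called without A549 ρ° C, NNT without A549 ρ+ C, and IDH2 210046_s_at and NNT without 143BTK- ρ+ C. For the difference between the lines, 1 (IDH1) was called without the 143BTK- ρ+ C and ρ° B arrays, an alternative added after seeing the data, and 0 to 1 with each array left out. Of all 11967 tested probe sets, 200 were called in the former and 54 to 311 in the latter. In 143BTK- the count of members stayed at 0 in every alternative. The causes were not tested.

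In A549 same-letter correlations of the deviations were 0.106, 0.0527 and 0.0877, weak but above the different-letter ones (-0.106 to 0.0216). In 143BTK- same letters gave 0.391, -0.114 and -0.0164 and different letters -0.501 to 0.409, so the letters did not pair the arrays there. With the letter as a replicate block 5 members were called in A549 (PGD, adjusted p = 0.0312, TKT 208700_s_at, 0.0457, and TKT 208699_x_at, 0.0446, added), 0 in the mean change, and 0 in the other comparisons.

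Changes that turned sign were small and none was called. PGD had a mean change of 0.0079 with 64 added, 0.070 centred on its chromosome, 0.084 without both parental C arrays, 0.057 without the 143BTK- ρ+ C and ρ° B arrays and -0.13 to 0.12 with each array left out. NNT 202783_at had a difference between the lines of 0.035 after quantile normalization of all 12 arrays and of -0.30 to 0.22 with each array left out. In 143BTK-, IDH2 210046_s_at had -0.056 centred on its chromosome, IDH2 210045_at 0.26 without the parental C array, and without the ρ+ C and ρ° B arrays IDH2 210045_at had 0.22, TALDO1 -0.15 and IDH1 0.23. With each array of 143BTK- left out, the ranges there were -0.23 to 0.21 for IDH1, -0.27 to 0.57 for IDH2 210046_s_at, -0.37 to 0.26 for IDH2 210045_at, -0.14 to 0.25 for TALDO1, -0.079 to 0.28 for TKT 208699_x_at and -0.0048 to 0.34 for TKT 208700_s_at. IDH2 210045_at ranged over -0.034 to 0.89 in A549, -0.023 to 0.44 in the mean change and -0.021 to 0.90 in the difference.

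Over all probe sets, 1417 were called in A549 as reported, 745 without the intensity trend and 422 to 1916 with each array left out. The mean change gave 443, 235 without the trend, 264 centred on chromosomes and 111 to 544 with each array left out. The difference gave 223, 124 without the trend and 54 to 311 with each array left out. In 143BTK- the replicate block called 1. The dim probe sets of NNT and IDH2 limit what these arrays can show.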

Other observations

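The probe sets of other genes whose log2 signals, centred on the mean of each line, ran most like those of a member over the 12 arrays were taken among those tested in both lines. For PGD they were FERMT2 (Pearson's r = 0.93), TSPYL2 (0.92) and HLA-G (0.91), and all 3 shared its higher mean in A549 ρ° cells and its lower mean in 143BTK- ρ° cells. For IDH1 they were MYBL1 (0.97), DBI (0.94) and GGH (0.94), each lower in A549 ρ° cells, MYBL1 by -1.62 on the log2 scale. For IDH2 210046_s_at they were LHPP (0.96), HEBP2 (0.95) and SPG11 (0.94), with log2 changes in A549 of 1.49, 0.73 and 0.85. For NNT 202783_at they were NMNAT2 (0.95), SLC30A9 (0.93) and SMARCA1 (0.91), each with a higher mean in ρ° than in ρ+ cells in both lines. For TKT 208700_s_at they were NCK1 (0.94), RHOT1 (0.94) and RPL3 (0.93), and for TALDO1 they were NRF1 (0.89), DNPEP (0.88) and PTTG3P (0.87). These are descriptions over 12 arrays that share 4 groups, picked as the highest of many probe sets, and no test was made of them.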
